A study of Bos taurus with 28 samples.

Results

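This set holds the 64 transcripts, of 28054 measured in bovine conceptuses, whose level dipped on day 13 of development. A transcript entered it when its median level on days 7, 10, 16 and 19 was at least 5 RPKM on every one of these days and at least 8 times its median on day 13. RPKM is the number of reads of a transcript divided by its length and by the depth of its library. Transcripts with a steep late rise were kept out, namely those at 20 RPKM or more on both day 16 and day 19 and at least 8 times their highest earlier median; 6 transcripts left the set for that reason, and 4 named transcripts were left out by identifier from the 68 that remained. The members were therefore chosen from the levels themselves, and the low day 13 medians below describe the choice and are no finding.

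A conceptus is the embryo together with the membranes around it. In cattle it leaves the zona pellucida as a blastocyst, stays free in the uterus for a long period, and grows from a sphere through an ovoid to a long filament before it attaches. The trophoblast of the filament secretes interferon tau, the signal by which the mother recognises pregnancy in ruminants, while the hypoblast lines the inside and forms the yolk sac. Because whole conceptuses were sequenced, fewer cells of a type and less RNA per cell cannot be told apart in any of these values.

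The 28 libraries came from crossbred beef heifers about 18 months old, all synchronised with a progesterone device and a prostaglandin analogue and all inseminated with semen of the same bull. The stages were blastocysts on day 7, hatched spheres on day 10, ovoid conceptuses on day 13, and filaments on day 16 and day 19. Per the labels' protocols, superovulation was used only for days 7 and 10, whose libraries hold groups of 5 embryos, and a later library holds a single conceptus. The sample characteristics of day 13 state a pool and superovulation instead, so the labels disagree on that day. Polyadenylated RNA was captured directly from material of days 7, 10 and 13, and total RNA was purified first on days 16 and 19. Stage, pooling, superovulation and RNA preparation thus cannot be told apart between the early and the late days. The files of 12 libraries were titled as a different sample. The 3 of them titled for a different day, labelled day 7 replicate 6, day 16 replicate 5 and day 19 replicate 5, were set aside. Day 16 replicates 2 and 3 differed by little more than the sampling noise (mean chi-square 1.19 per transcript, against 5.37 to 18.0 for the other day 16 pairs) and were counted as 1 sample. The comparisons rest on 24 replicates, with 5, 7, 5, 3 and 4 for the days in order. Library totals ran from 473552 to 10871501 reads. No label ties a library to a heifer, and the p-values reflect the spread between libraries, part of which may be technical.

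Taken over the set, the label of a trough on day 13 held for 4 of the 5 day 13 libraries. It did not hold for every member in each, since 42 of the 64 were 8-fold below the other days in all 4. Day 13 replicate 5 stood apart from its day in this set. Counts of calls that changed without this library are given both ways, as are some, not all, of the changed calls of named members. The 64 transcripts together took 0.0694%, 0.0478%, 0.0417% and 0.0474% of the reads of day 13 replicates 1 to 4, and 1.87% of those of replicate 5. On day 7 their share was 0.703% to 1.83%, and on day 10 it was 0.744% to 2.32%. It was highest on the late days, at 4.37% to 6.63% on day 16 and 3.84% to 5.67% on day 19. Day 13 replicates 1 to 4 thus lay below every other library, and replicate 5 lay among those of days 7 and 10. Without ENSBTAT00000018528 and ENSBTAT00000018536, the 2 members with the highest levels, the share was 0.0348% to 0.0593% in day 13 replicates 1 to 4 and 1.10% in replicate 5, so the contrast did not rest on these 2.

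**Figure D1:**
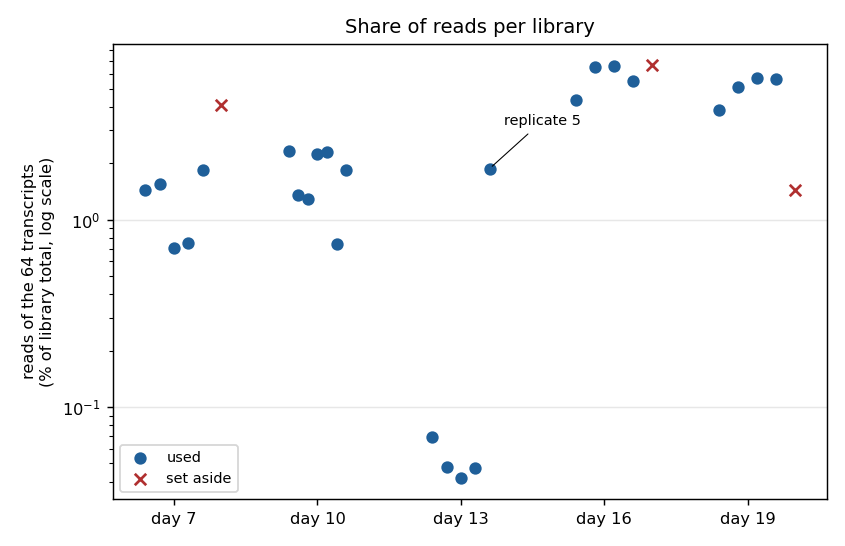
Share of each library's reads taken by the 64 transcripts together (percent, log scale) by labelled day; circles are libraries used in the comparisons, crosses the 3 libraries set aside. Day 13 replicates 1 to 4 sit between 0.0417% and 0.0694%, and replicate 5 of that day sits at 1.87%.

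Across the members, the median of the day medians was 25.1 and 25.3 RPKM on the early days 7 and 10, 0.758 on day 13, and 111 and 99.6 RPKM on the late days 16 and 19. The 8256 transcripts with medians of at least 5 RPKM on the same 4 days, of which the members make up 0.775%, had medians of 23.9, 22.9, 25.0, 22.0 and 22.1 RPKM over the 5 days in order. Members thus lay near the typical level before day 13 and above it afterwards. The peak came on day 16 for 38 members and on day 19 for 19, and early for the rest, on day 7 for 6 and on day 10 for 1. For the 54 members with a day 13 median above 0, the lowest median of the other days was 8.05 to 328 times the day 13 median, with a median ratio of 17.4. When the same 2 limits were put to each day in turn, 74 transcripts were low on day 13, the 10 kept out of the set included, against 10 for day 7, 7 for day 10, 2 for day 16 and 6 for day 19. Members were 375 to 4735 nucleotides long, with a median of 1505, and the transcripts at the same level had a median of 1814.

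The limits cut through a continuous range of values. Just inside the fold limit stood ENSBTAT00000032557 with a ratio of 8.05 and ENSBTAT00000056815 with 8.31, and just outside it stood ENSBTAT00000025600 with 7.88 and ENSBTAT00000048395 with 7.68. At the level limit, the lowest medians inside were 5.04 RPKM for ENSBTAT00000039682 and 5.10 for ENSBTAT00000022687. ENSBTAT00000018508, at 4.94 RPKM, and ENSBTAT00000001747, which rounds to 5.00, lay just outside. With a limit of 4 times, 120 transcripts would qualify, and with 16 times 40. With a level limit of 1 RPKM there would be 138. With the mean of each day in place of the median, 12 transcripts would qualify, 6 of them members. Leaving day 13 replicate 5 out gave 66, with 63 of the members among them.

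**Figure D2:**
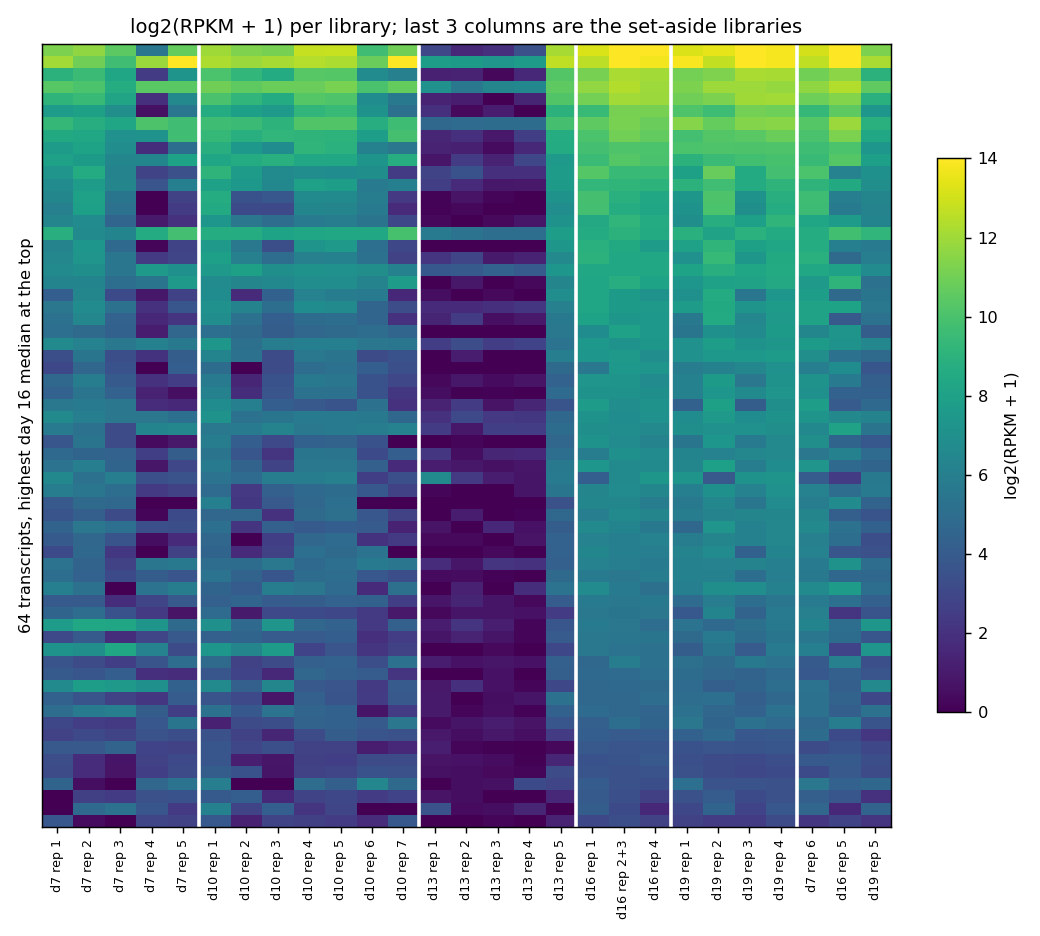
Level of each of the 64 transcripts, log2(RPKM + 1), in every replicate (columns, by day) and in the 3 libraries set aside (last columns); transcripts are ordered by their day 16 median. The 4 dark day 13 columns stand next to replicate 5, in which 57 of the 64 transcripts reach 5 RPKM, and in day 7 replicate 4, 24 of them are at least 8-fold below their day 7 median.

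No table at hand pairs these identifiers with gene names: among 37063 RefSeq genes of assembly ARS-UCD2.0, 0 are listed with an Ensembl bovine identifier. Members are therefore described by identifier, without a gene's role, and the tissue markers that would check the labelled stages were not used here.

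ENSBTAT00000018528 had the highest level on its lowest day, day 13 aside. It measured 4305, 1964, 851, 3785 and 18480 RPKM in the 5 day 7 replicates, and from 1794 through a median of 4899 to 16443 on day 10. On day 13 it measured 226, 199, 158 and 212 RPKM in replicates 1 to 4 and 6443 in replicate 5. Every early library lay above day 13 replicates 1 to 4, and replicate 5 lay inside the early range. Day 16 gave 6154, 16174 and 13786 RPKM, and day 19 gave 14878, 6654, 20954 and 14617. The late values overlapped the early ones, since day 7 replicate 5 and day 10 replicate 7 exceeded most late libraries. The change from the early to the late days was 1.55 ± 0.60 (SE) on the log2(RPKM + 1) scale, with an adjusted p of 0.0946 in limma, so it was not called. Without day 13 replicate 5, which enters this change only through the shared estimate of spread, it was called (1.55 ± 0.43, limma adjusted p = 0.0182).

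ENSBTAT00000018536 came next by that measure and varied far more among replicates. Day 7 gave 2402, 3322, 1413, 44.6 and 1664 RPKM, of which replicate 4 was the low one. Day 10 ran from 839 through a median of 2539 to 7129. In day 13 replicates 1 to 4 it measured 6.97, 2.03, 2.79 and 10.0 RPKM, and in replicate 5 it measured 4638. Its late values were 9504, 18814 and 15888 RPKM on day 16 and 9784, 11397, 16729 and 14174 on day 19. All of these exceeded every early value. The rise from early to late was 2.99 ± 1.04 (SE) on the log2(RPKM + 1) scale and was not called by limma (adjusted p = 0.0632). Without day 13 replicate 5 it was called (2.99 ± 0.59, limma adjusted p = 0.00134).

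The next 2 members by that measure had narrower groups. ENSBTAT00000054128 measured 1323, 1060, 407, 1356 and 1391 RPKM on day 7, and from 1017 through 1815 to 2322 on day 10. On day 13 it gave 133, 47.7, 81.4, 91.4 and, in replicate 5, 1459 RPKM. Day 16 gave 3361, 5339 and 3996 RPKM, and day 19 gave 2419, 3920, 3910 and 3529. No late value overlapped an early one, and the rise of 1.52 ± 0.42 (SE) was called (limma, adjusted p = 0.0192). ENSBTAT00000029758 measured 639, 425, 301, 1079 and 825 RPKM on day 7, and from 420 through 791 to 1184 on day 10. Its day 13 values were 25.4, 29.0, 30.1 and 30.1 RPKM in replicates 1 to 4, the closest agreement among these 4 members, and 926 in replicate 5. Day 16 gave 1495, 2299 and 1795 RPKM and day 19 gave 2796, 1631, 2659 and 2884, again without overlap with the early days. Its rise was 1.65 ± 0.48 (SE), called by limma with an adjusted p of 0.0250.

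**Figure D3:**
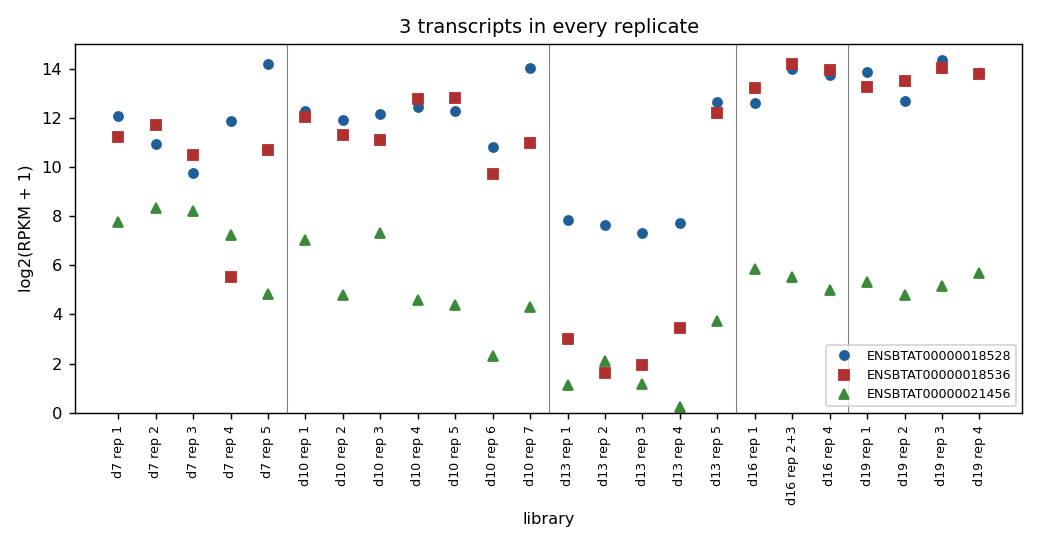
Level of 3 members, log2(RPKM + 1), in each of the 24 replicates, grouped by day; each point is 1 replicate. ENSBTAT00000018528 and ENSBTAT00000018536 are low in day 13 replicates 1 to 4 and not in replicate 5, where they measured 6443 and 4638 RPKM, and ENSBTAT00000021456 is highest on day 7.

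At the bottom of the trough, 38 members had a day 13 median under 1 RPKM and 10 had a median of 0. Among the 54 members with a median above 0, the ratio was largest for ENSBTAT00000034280, whose day 13 median of 0.237 RPKM corresponds to 1 read. The day 13 values were 0, 0.856, 0 and 0.237 RPKM in replicates 1 to 4 and 80.4 in replicate 5. Its level was 31.8 to 188 RPKM on day 7 and 76.7 to 211 on day 10. It was 275 to 414 RPKM on day 16 and 160 to 343 on day 19. The change of ENSBTAT00000034280 from the early to the late days, 1.72 ± 0.58 (SE), was not called by limma (adjusted p = 0.0519). Without day 13 replicate 5 it was called (1.72 ± 0.29, limma adjusted p = 0.000376). ENSBTAT00000004927 followed, with 0.111, 0.244, 0, 0 and 117 RPKM on day 13. In both, replicate 5 was the one library of its day with a level like that of day 10.

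Replicates 1 to 4 of day 13 held no read at all for 4 members, which were singled out after their values were seen. Among the 22442167 reads of these libraries together, a count of 0 allows up to 3 reads, a limit that covers counting error only. For ENSBTAT00000022772 that is 0.0657 RPKM, and its day 10 median of 47.5 RPKM was at least 724-fold higher. For ENSBTAT00000005986 the day 10 median was at least 315-fold higher, for ENSBTAT00000025567 at least 173-fold and for ENSBTAT00000031806, the shortest of these, at least 42.4-fold. Day 13 replicate 5 held 419, 87, 45 and 5 reads of these 4 transcripts, and measured 167 RPKM for the first of them. That library was shallower than the other 4 of its day, with 1232705 reads against 4636213 to 6500130.

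Day 13 replicate 5 was above all 4 other day 13 replicates for 60 of the 64 members (93.8%), against 29.4% of the 8192 other transcripts at the same level. The choice of members made low medians and so favours this count, and it is given as a description. Its level was at least 8 times the median of replicates 1 to 4 in 53 members, against 78 of the 8192 others. The choice of members favours this count too. The 10 members with a day 13 median of 0 pass it at any level in replicate 5. In 44 members replicate 5 lay within 2-fold of the day 10 median, which was not counted for other transcripts. The median ratio to the day 10 median was 1.12. Against the day 16 medians the median ratio was 0.296, with the middle of the members between 0.224 and 0.470. The 4 members in which replicate 5 was not above the rest were, as singled out after their values were seen, ENSBTAT00000013548, ENSBTAT00000024260, ENSBTAT00000027838 and ENSBTAT00000044482. In ENSBTAT00000024260, replicate 5 held no read and replicate 1 was the high one at 11.0 RPKM, and in ENSBTAT00000044482 replicate 1 measured 104 RPKM against 52.7 in replicate 5. Taken alone, replicate 5 would have been 8-fold below the other days for only 2 members, ENSBTAT00000024260 and ENSBTAT00000027838. Replicates 1, 2, 3 and 4 would have been so for 58, 53, 61 and 61, and all 4 of them for 42.

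**Figure D4:**
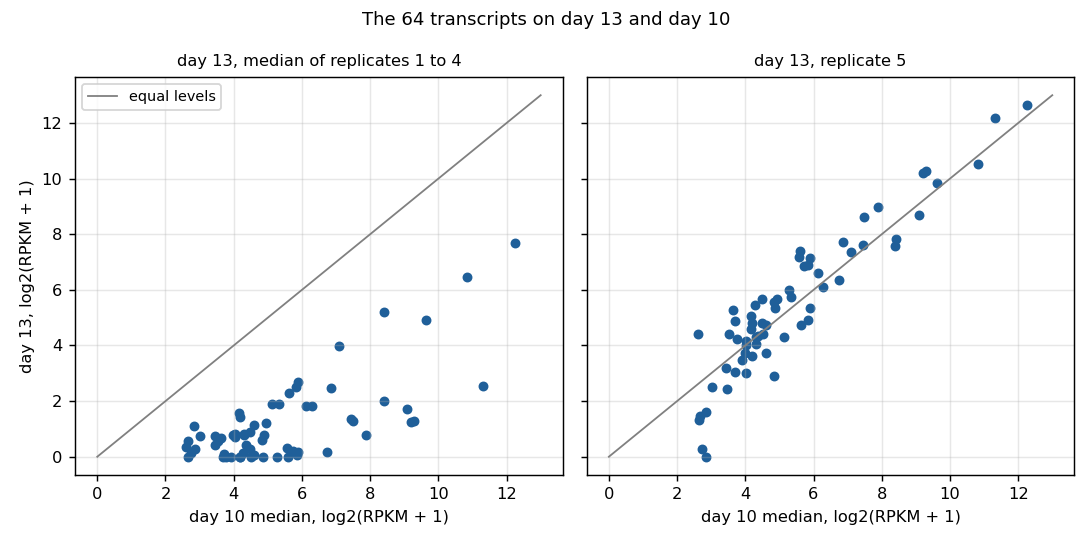
Day 13 level of each of the 64 transcripts against its day 10 median, both log2(RPKM + 1); the left panel has the median of day 13 replicates 1 to 4, the right panel replicate 5, and the line marks equal levels. All points lie below the line on the left, and on the right 44 of the 64 lie within 2-fold of the day 10 median.

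In the relative levels of the members, replicate 5 was close to the day 16 medians, and so were 2 day 10 libraries. Across the 64 members, its log2(RPKM + 1) values had a Pearson r of 0.96 with the day 16 medians, at a median difference of -1.71, and the SD of the differences was 0.76. Day 10 replicates 4 and 5 had 0.95 and 0.96. Day 13 replicates 1 to 4 had 0.46 to 0.56, with median differences of -5.83 to -5.64. Members share their library and the floor at 0 reads, so these correlations are descriptions. Over the 8192 other transcripts at the same level, day 13 replicate 5 had an r of 0.72 and day 13 replicates 1 to 4 had 0.74 to 0.77. Day 10 replicates 4 and 5 had 0.9 each there, so only in these 2 libraries was the closeness to day 16 shared by the other transcripts.

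Among the early libraries, day 7 replicate 4 divided the members. There 24 of 64 (37.5%) were at least 8-fold below their day 7 median, against 0.427% of the other transcripts at the same level. Day 10 replicate 7 did so against its own day in 15 members (23.4%, against 3.02%). The 2 libraries shared 13 members, 54.2% of the 24 and 86.7% of the 15. The split by day 7 replicate 4 was made after the values were seen. In that library the 24 members had a median of 0.946 RPKM and the 40 others 12.8, a contrast the split itself sets. In day 10 replicate 7 the medians were 5.05 RPKM for the 24 and 14.6 for the 40. On the late days the 24 were the more abundant, with medians of 199 RPKM on day 16 and 175 on day 19, against 52.9 and 68.4 for the 40. In day 13 replicate 5 they measured 81.3 RPKM against 19.6. ENSBTAT00000018536 belonged to the 24, as did ENSBTAT00000004927, which held no read in day 7 replicate 4, whereas ENSBTAT00000018528 did not drop there. One short transcript outside the set took 38.4% of the reads of day 10 replicate 7 and 34.3% of those of day 7 replicate 5, where the other transcripts at the same level had medians of 15.5 and 16.8 RPKM against 20.9 to 27.7 in the rest of the libraries used. It took 2.99% in day 7 replicate 4. Its part in these low values was not tested.

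The rule sets no direction between the early days, 7 and 10, and the late days, 16 and 19, although it caps the late rise. This difference was tested with limma over 19186 transcripts, with calls made where the p, adjusted by Benjamini-Hochberg, was under 0.05 and the log2 change was at least 1 in size. Of the 64 members 42 rose and 0 fell, where 10.0% of all transcripts tested were called, 6.06% as higher and 3.98% as lower. At an unadjusted p under 0.05, 52 members were higher and 0 lower, where 2646 and 2125 of all 19186 transcripts were. The median change of the members was 1.96 on the log2(RPKM + 1) scale, with a range of -0.86 to 3.88, and that of all transcripts tested was -0.01. The change was above 0 in 61 of 64 members and in 49.5% of all transcripts. By medians, 54 members were higher on both late days than on either early day. The same was not counted for other transcripts, so the 54 are a description only. The count of called members was 49 without day 13 replicate 5 and 28 without the merged day 16 pair. In those fits 10.9% and 6.34% of all transcripts were called. The count was 24 with a pseudocount of 0.1 and 14 with all 28 libraries as labelled, every called member again being higher. Those settings called 8.7% and 3.77% of all transcripts.

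**Figure D5:**
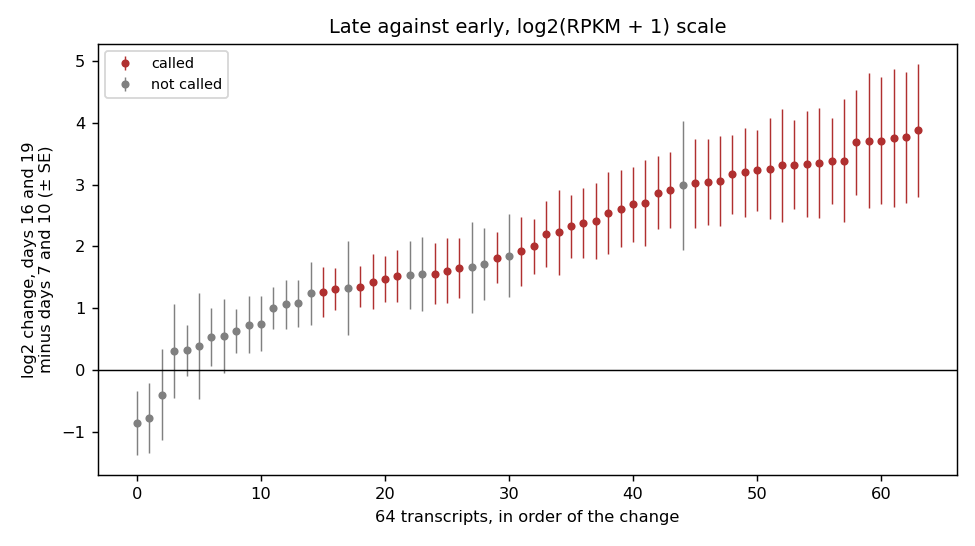
Change of each of the 64 transcripts from days 7 and 10 to days 16 and 19, on the log2(RPKM + 1) scale, in order of size; bars are standard errors from the limma model and red points are the 42 that were called. The values run from -0.86 to 3.88, and 61 are above 0.

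ENSBTAT00000004927 and ENSBTAT00000045193 rose most. ENSBTAT00000004927 measured 67.2, 238, 36.2, 0 and 4.58 RPKM on day 7 and from 2.12 through 56.7 to 379 on day 10. It reached 888, 407 and 300 RPKM on day 16 and 147, 1051, 127 and 405 on day 19. The early libraries spread widely and the highest of them overlapped the late ones. The change was 3.88 ± 1.08 (SE) with an adjusted p of 0.0201 in limma, and 3.77 ± 1.06 with 0.0217 for ENSBTAT00000045193. Their adjusted p ran from 0.0042 to 0.112 and from 0.00415 to 0.117 over the 36 alternatives, and the call held in 32 and 31 of them. The 2 profiles were nearly proportional, with an SD of 0.184 in their log2 difference over the 24 replicates. They may share reads, which the files do not say, and are best counted as 1 observation. ENSBTAT00000019075 and ENSBTAT00000057102, of 881 and 872 nucleotides, formed the closest pair with an SD of 0.177. In all, 14 of the 2016 pairs of members had an SD under 0.5, so the 64 members are fewer than 64 independent transcripts.

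The members nearest the fold limit rose as well. ENSBTAT00000032557 measured 103, 123, 44.9, 187 and 127 RPKM on day 7 and from 69.7 through 136 to 244 on day 10. On day 16 it gave 326, 327 and 323 RPKM, and on day 19 it gave 279, 439, 311 and 377. No late value overlapped an early one. Its rise was 1.47 ± 0.37 (SE; limma, adjusted p = 0.00983), and that of ENSBTAT00000056815 was 2.33 ± 0.51 (adjusted p = 0.00344).

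From the first to the last day, day 7 to day 19, 16 members rose and 0 fell, where 6.79% of all transcripts were called in either direction, 3.28% as higher and 3.51% as lower. The median change of the members was 2.02 and that of all transcripts -0.19. The count was unstable: at an unadjusted p under 0.05, 48 members were higher and 2 lower, where 1840 and 2219 of all 19186 transcripts were. Limma's voom on the recovered reads called 43 as higher and 2, ENSBTAT00000009478 and ENSBTAT00000021456, as lower, where it called 21.9% of all transcripts. These 2 were also called lower when only the days of the comparison were fitted or without day 7 replicate 5. Those settings called 11.9% and 9.78% of all transcripts. Without day 13 replicate 5, 43 were called as higher, where 8.59% of all transcripts were called. Leaving out day 7 replicate 3 or 4, the merged day 16 pair, day 16 replicate 4 or any 1 of the day 19 replicates gave 2 to 10. There 2.84% to 6.52% of all transcripts were called. Without day 19 replicate 2 or 4, 2 members were called, a share similar to the 3.07% and 2.84% of all transcripts. Calls thus showed no excess of members there. The median change of the members was still 2.16 and 1.97, against -0.16 and -0.19 for all transcripts. ENSBTAT00000053357 rose most, from 204, 244, 122, 0.523 and 43.8 RPKM on day 7 to 1149, 802, 2156 and 1918 on day 19. ENSBTAT00000017715 went from 211, 280, 115, 2.60 and 32.9 RPKM to 1059, 1114, 1108 and 1133, with the late replicates close together and the early ones far apart. Neither overlapped between the days. Their changes were 4.72 ± 1.43 (SE) and 4.18 ± 1.27, with limma adjusted p of 0.0467 and 0.0475. Over the 36 alternatives the adjusted p ran from 0.00353 to 0.299 and from 0.00265 to 0.321, and the call held in 15 of 36 for each.

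On the 2 sides of day 13, from day 10 to day 16, 0 members were called by limma, where 1.10% of all transcripts were. The median change of the members was 1.79 against 0.15 for all, and 63 of 64 were above 0, where 58.1% of all transcripts were. At an unadjusted p under 0.05, 35 members were higher, where 2073 of all 19186 transcripts were. Voom called 10, all higher, where it called 1.44% of all transcripts. Without day 13 replicate 5, 8 were called, where 1.51% of all transcripts were. By medians, the day 16 level was 0.373 to 14.3 times the day 10 level, with a median ratio of 2.96.

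Between neighbouring days on the same side, no member was called. From day 7 to day 10 limma called 0 members, where 0.00521% of all transcripts were called. At an unadjusted p under 0.05, 3 members were lower, where 1067 of all 19186 transcripts were, a similar share. Voom called 1, ENSBTAT00000009478, as lower, where it called 0.193% of all transcripts. The median change was 0.53 against -0.04. Leaving out day 7 replicate 5 gave 2, ENSBTAT00000009478 and ENSBTAT00000021456, both lower, where 0.488% of all transcripts were called. From day 16 to day 19 limma called 0, where 0.235% were called. At an unadjusted p under 0.05 there were 0 members, where there were 1295 of all 19186 transcripts. Voom called 0 members, where it called 6.17% of all transcripts. The median change was -0.14 against -0.17 for all transcripts. Centring each library on its median moved both above 0, to 0.20 and 0.17, so no direction is read from this step.

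In 7 members the highest median was that of an early day. They were, as singled out after their values were seen, ENSBTAT00000006445, ENSBTAT00000007517, ENSBTAT00000009478, ENSBTAT00000013548, ENSBTAT00000021456, ENSBTAT00000024260 and ENSBTAT00000027838. ENSBTAT00000021456 measured 213, 322, 295, 148 and 27.2 RPKM on day 7 and from 3.99 through 23.3 to 158 on day 10. On day 13 it gave 1.16, 3.29, 1.24, 0.165 and 12.2 RPKM, and it returned to 56.7, 45.0 and 30.6 on day 16 and 38.6, 26.5, 34.3 and 50.0 on day 19. Its late level lay inside the range of day 10 and, apart from replicate 5, below day 7. The change from day 7 to day 10 was -2.30 ± 0.69 (SE) and was not called by limma (adjusted p = 0.247). ENSBTAT00000009478 followed it closely, with an SD of 0.312 in the log2 difference, and the remark on shared reads holds for this pair too. These 2 and ENSBTAT00000007517 were the only members with a change below 0 from the early to the late days.

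For day 13 itself the same model called 25 members as lower than on day 7, where 1.68% of all transcripts were, and 32 as lower than on day 10, where 0.532% were. As lower than on day 16 and on day 19 it called 61 each, where 5.06% and 3.22% of all transcripts were higher on the later day. Without day 13 replicate 5, an alternative added after seeing the data, the counts were 51 and 57 (1.90% and 0.977% of all transcripts lower on day 13) and 61 and 62 (5.60% and 3.79% higher on the later day). The rule used these contrasts, so the counts describe how the chosen transcripts behave in the model and support nothing.

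The 3 libraries set aside did not enter the rule. The members took 4.07% of the reads of the library labelled day 7 replicate 6, whose file is titled for day 16, 6.71% of those labelled day 16 replicate 5, titled for day 19, and 1.44% of those labelled day 19 replicate 5, titled for day 7. Their median level in these libraries was 99.4, 45.3 and 34.5 RPKM, and 63, 61 and 61 of the 64 members were at 5 RPKM or more. In none of the 3 did the set lie near day 13 replicates 1 to 4, where 6 to 10 members reached that level. None of the 3 is labelled or titled for day 13, so these values do not bear on the trough.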

How the data were processed

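The authors deposited 1 RPKM value per Ensembl bovine transcript and library. The submitters' processing notes name CASAVA and give no version; the build and annotation are not given in the sources used. Every RPKM value corresponded to whole reads (100.0% within 0.01 of a read for the transcripts checked), so reads, lengths and totals were recovered. Groups follow the sample labels. Changes were tested with limma 3.58.1 under R 4.3.3, with trended and robust eBayes moderation, on log2(RPKM + 1), the 5 days in 1 model, for transcripts that reached 1 RPKM in 4 or more replicates. A fold change on this scale understates the change of low transcripts. Alternatives were the pseudocount, the filter, centring, quantile normalization, voom on recovered reads, which libraries entered, and each replicate left out. Named members are the 4 with the highest lowest-median, the 2 with the smallest and the 2 with the largest ratio, and for each comparison the 2 called members with the largest rise and fall. Members, lists and tests were chosen with earlier results of these data known. Gene lists and cell type markers planned by symbol, and sequences, were not used here, because 0 of the 28054 identifiers matched the reference table. 0 columns were unmapped. Figures were drawn with matplotlib 3.10.9.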

Additional observations from a re-analysis of the deposited data

Results flagged for a closer look

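Among 48 groups of 4, 5 or 7 replicates examined on the log2 scale for a sample far from the others, 14 held one. The usual chance rate is about 1 in 20 groups, but it does not apply to the day 13 groups. The members were chosen for low day 13 medians, which favours a single high sample there, so the count is a description. In 10 of the 14 the sample was day 13 replicate 5, and these 10 are 1 library rather than 10 independent events. It held 1.87% of its reads in the 64 members, against 0.0417% to 0.0694% in the other 4 libraries of that day. ENSBTAT00000018528 measured 6443 RPKM there against 158 to 226, ENSBTAT00000018536 4638 against 2.03 to 10.0, and ENSBTAT00000029758 926 against 25.4 to 30.1. ENSBTAT00000032557 measured 162 RPKM against 13.5 to 20.3, ENSBTAT00000034280 80.4 against 0 to 0.856, and ENSBTAT00000004927 117 against 0 to 0.244. ENSBTAT00000045193 measured 139 RPKM against 0 to 0.686, ENSBTAT00000053357 503 against 0 to 2.66, and ENSBTAT00000017715 390 against 0.336 to 2.03.

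In the other 4 groups a different library lay apart. ENSBTAT00000018536 was low in day 7 replicate 4, at 44.6 RPKM against 1413 to 3322 in the other day 7 replicates. ENSBTAT00000054128 was low in day 7 replicate 3, at 407 RPKM against 1060 to 1391. ENSBTAT00000029758 was low in day 19 replicate 2, at 1631 RPKM against 2659 to 2884, and ENSBTAT00000034280 was high in day 10 replicate 7, at 211 RPKM against 76.7 to 117.

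The libraries set aside also held the members. Their share of reads was 6.71% in the library labelled day 16 replicate 5, 1.44% in that labelled day 19 replicate 5 and 4.07% in that labelled day 7 replicate 6, all above the 0.0417% to 0.0694% of day 13 replicates 1 to 4. None of these libraries is labelled or titled for day 13, so their shares do not bear on the trough.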

How the results depend on the processing

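No paired analysis was possible because replicate numbers were given only in accession order and pair no samples. No called result reversed. The share of all transcripts called moved with the setting too. For day 19 against day 7 it was 6.79% as reported, 11.9% with only these 2 days fitted, 21.9% with voom and 0.0% with all 28 libraries. The median change from day 16 to day 19, -0.14 with no call, became 0.20 under median centring. The set of 64 became 12 (6 shared) with the mean per day in place of the median, 120 and 40 with fold limits of 4 and 16, 138 with a level limit of 1 RPKM, and 56 to 76 with 1 replicate left out. Shares of all transcripts called follow in brackets. Late against early, 42 became 24 with a pseudocount of 0.1 (8.7%) and 14 with all 28 libraries as labelled (3.77%). It became 28 to 49 with 1 replicate left out (6.34% to 11.6%). Day 19 against day 7, 16 became 1 and 7 with pseudocounts of 0.1 and 0.5 (5.59% and 6.45%). It became 6 without a filter (4.24%) and 30 with median centring (8.85%). It became 45 with voom on reads, 43 higher and 2 lower, and 0 with all 28 libraries. With only these 2 days fitted it became 39, of which 37 were higher and 2 lower. It became 9 without the merged day 16 pair (6.2%), and 2 to 43 with 1 replicate left out (2.84% to 9.78%). Day 16 against day 10, 0 became 2 with quantile normalization (1.7%), 10 with voom (1.44%) and 8 with day 16 replicates 2 and 3 separate (3.45%). It became 1 with only these days (0.0362%) and 0 to 8 with 1 replicate left out (0.0162% to 2.84%). Day 10 against day 7, 0 became 1 with voom (0.193%) and 0 to 2 with 1 replicate left out (0.00522% to 0.488%). Day 19 against day 16 it was 0 throughout. Leaving out day 7 replicate 5, day 10 replicate 7 and day 13 replicate 5 together, chosen after seeing the data, gave 43 from day 7 to day 19 (41 higher, 2 lower), 13 from day 10 to day 16 and 2 from day 7 to day 10. Of all transcripts, 13.7%, 2.73% and 0.977% were called in that setting, in the same order. Over the alternatives, the calls of the 4 members named for a rise held 93 times and were lost 51 times. The causes were not tested. Depth limits the low end: the shallowest library held 473552 reads.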
